A study of Homo sapiens with 52 samples.

Results

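The NRF2 antioxidant genes described here are HMOX1, NQO1, GCLM, GCLC, TXNRD1, SRXN1, OSGIN1, ME1 and FTH1, 9 genes chosen by symbol out of the 59408 genes that each table lists. All 9 had a mean level of at least 10 over the 26 groups of cells, the minimum for a gene to be tested, and so belonged to the 14898 genes tested. The cells were WI-38, a normal human fetal lung fibroblast strain with a limited replicative lifespan. Untreated young cells at population doubling level 32 to 46 were the common reference. PMD-Sen cells received 0.009% sodium dodecyl sulfate (SDS, a detergent that damages the plasma membrane), Ca2+-Sen cells 75 mM KCl (a calcium influx stimulus) and DDR-Sen cells 250 nM doxorubicin (DXR, a DNA-damaging drug), each for 24 h. They were collected at the end of the exposure (day 0), daily up to day 4, and on days 6, 8 and 16. Replicatively senescent (RS) cells had been passaged to about population doubling level 52. Each group had 2 libraries of mRNA sequencing, 52 in all. Treated cells of every day were compared with the same 2 untreated libraries, so treatment and time in culture cannot be told apart on the later days.

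NRF2, encoded by NFE2L2, is a transcription factor that cells keep scarce: KEAP1 holds it and hands it to a CUL3 ubiquitin ligase for degradation. Electrophiles and oxidants modify KEAP1, NRF2 then accumulates, pairs with a small MAF protein (MAFF, MAFG or MAFK) and binds antioxidant response elements near its target genes. BACH1 pairs with the same small MAF proteins and represses some of these genes, HMOX1 above all, until heme removes it. The 9 genes cover heme breakdown (HMOX1), glutathione synthesis (GCLC and GCLM), the thioredoxin and sulfiredoxin systems (TXNRD1 and SRXN1), quinone reduction (NQO1), NADPH supply (ME1), iron storage (FTH1) and a growth-restraining oxidative stress protein (OSGIN1).

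The core of the antioxidant response element, searched as TGACNNNGC on both strands, is shown where it lay in the start regions of the members, since it is the element that NRF2 binds. RefSeq start regions (GRCh38.p14, 250 bases before to 50 after a start site) were found for 7 of the 9 members, and HMOX1 and FTH1 had no entry. Of these 7, 3 members held a match, in 4 of 8 start regions, compared with 13.3% of all 35116 start regions. Sequence farther from the starts was not searched, so the lack of a match says nothing of elements there. Each sequence below runs 5′ to 3′ on the strand of its gene, and the capitals mark the match.
GCLM, chr1:93909446-93909474: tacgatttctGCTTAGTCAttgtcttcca
ME1, chr6:83431170-83431198: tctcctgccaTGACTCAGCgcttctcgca
TXNRD1, first start region, chr12:104215670-104215698: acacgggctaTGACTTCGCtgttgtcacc
TXNRD1, second start region, chr12:104286920-104286948: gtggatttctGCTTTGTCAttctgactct
The GCLM match began 34 bases before the start and was read on the opposite strand as TGACTAAGC. The ME1 match began 137 bases before the start and overlapped the related motif TGANTCA, which AP-1 factors bind and which 7.71% of all start regions held. The TXNRD1 matches began 99 and 102 bases before their starts. The ME1 region and the first TXNRD1 region each held another match, not shown. A match is a description of the letters and not evidence of binding.

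The files held no value of a single library, only the mean of the libraries compared, a log2 fold change against untreated cells and its standard error (SE). The level of each group was recovered from these and is given in normalised read counts on 1 scale. Library sizes recovered from the tables were 15.4 M and 18.8 M counted reads for the untreated libraries, the smallest of the series, 19.1 M to 53.5 M for treated cells, and 45.2 M and 58.0 M for RS cells. The untreated level of a member differed by at most 0.406% between tables. All 8 fibroblast markers examined were high in every group, from COL1A1 at 273011 in untreated cells to LUM, at no less than 1139 in any treated group. Of the 12 markers of other cell types examined, KRT5, SFTPC, CDH5 and CD3E were at 0 in untreated cells and at most at 2.67 in any other group. The epithelial gene EPCAM was at 12.9 in untreated cells and 0.704 to 17.2 in the other groups, and CDH1 at 0.234 and up to 9.78. The leukocyte genes PTPRC and CD68 were at 0.212 and 0.221 in untreated cells and reached 19.7 and 4.92. The endothelial gene VWF was at 34.6 in untreated cells and 22.5 to 72.1 in the other groups, and PECAM1 at 2.20 and 2.02 to 108. The smooth muscle gene MYH11 did not exceed 1.31, while CNN1, which activated fibroblasts also express, was at 3233 in untreated cells and 1093 to 6089 in the other groups. The part of other cell types in the results was not tested. A gene was called higher or lower at an adjusted p-value under 0.05. These p-values come from the authors' fits of 2 treated and 2 untreated libraries. They could not be checked against the spread between the libraries of a group, which were independent samples of the one cell strain. In bulk RNA a change in the share of cells that express a gene and a change per cell cannot be told apart.

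At the end of the SDS exposure 8 of the 9 members were higher than in untreated cells and none was lower, where 19.8% of all genes tested were called higher and 20.2% lower. The median log2 fold change of the members was 1.07, compared with 0.00 over all genes tested. After KCl 8 of the 9 were also higher and none lower (background 23.6% higher and 26.5% lower), with a median of 0.80 compared with -0.04. The KCl calls of HMOX1, GCLM and TXNRD1 were near the threshold (adjusted p = 0.0295 to 0.0441) and were lost without the minimum level for testing. After doxorubicin 2 were higher (NQO1 and OSGIN1) and 1 lower (GCLM), with backgrounds of 12.9% and 14.9%, and the members' median was 0.15. The lower count there was near the background. The member that did not pass after SDS was NQO1, and after KCl it was FTH1.

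**Figure D1:**
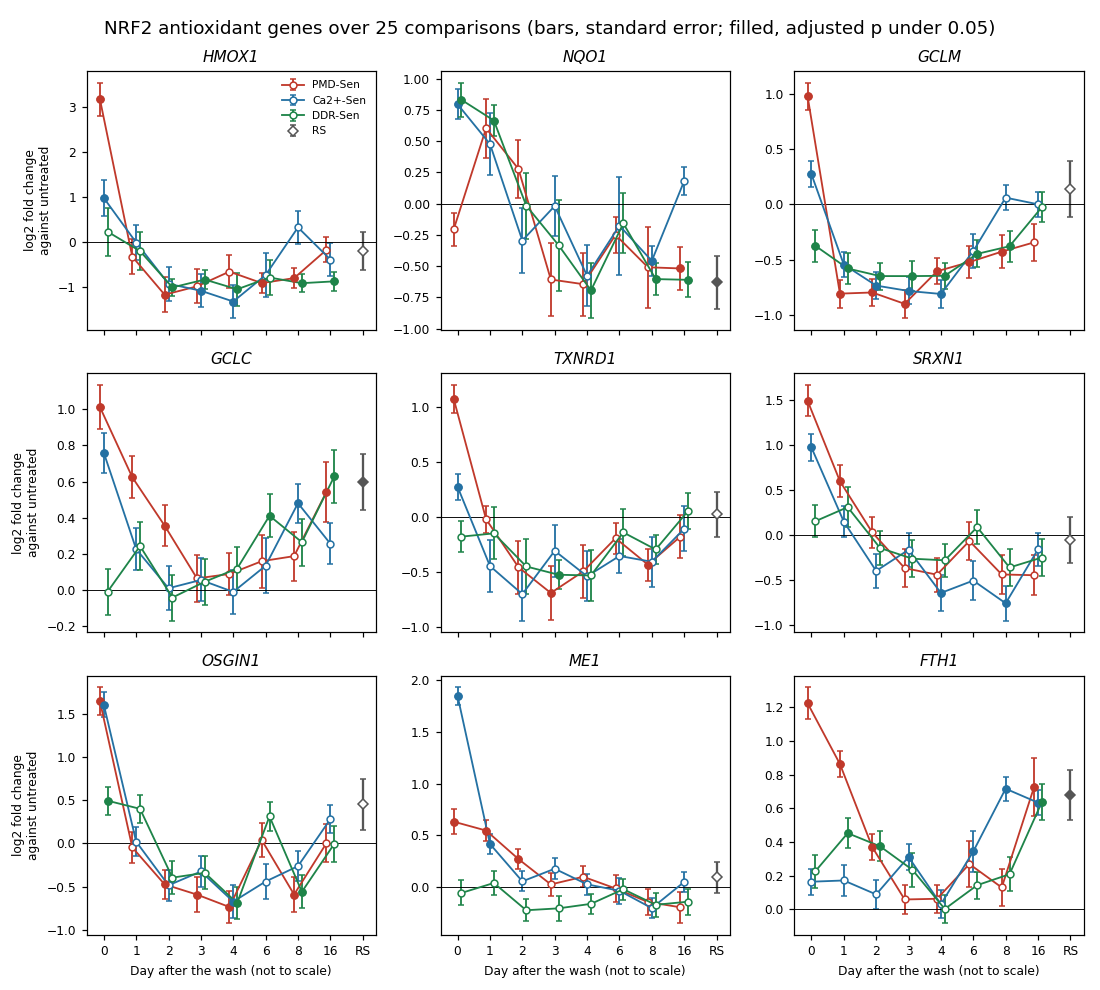
Log2 fold change of each of the 9 genes against untreated cells (vertical axis, own range for each panel) by day after the wash (horizontal axis, days evenly spaced) for PMD-Sen, Ca2+-Sen and DDR-Sen cells, with RS at the right. Bars are standard errors, filled symbols mark an adjusted p-value under 0.05, and all comparisons share the untreated libraries. The day 0 value of HMOX1 after SDS, 3.18, stands above all others, and GCLM lies below 0 from day 1 to day 6 in each series.

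HMOX1 (chr22:35380361-35394214, plus strand), the inducible heme oxygenase that breaks heme down to biliverdin, iron and carbon monoxide, had the largest rise of the members. Its level was 1128 in untreated cells and 10215 at day 0 of PMD-Sen, 2229 at day 0 of Ca2+-Sen and 1325 at day 0 of DDR-Sen. The SDS value was 9.06-fold above untreated cells (95% confidence interval 5.48 to 15.0, adjusted p = 1.46e-16). The KCl value was 1.98-fold above (adjusted p = 0.0295), a call that was lost without the filter on low values (adjusted p = 0.061), and the doxorubicin value did not pass (log2 fold change 0.23, SE 0.53). The step from SDS to KCl passed the test (log2 difference 2.20, SE 0.54, adjusted p = 0.000277). The step from KCl to doxorubicin was 0.75 on the log2 scale, with a 95% interval from -0.55 to 2.06.

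On day 1 HMOX1 no longer differed from untreated cells by the test. Its level in PMD-Sen was 904, a log2 difference of -3.50 from day 0 (SE 0.53, adjusted p = 8.3e-10). The step in Ca2+-Sen was -0.99 (95% interval -2.08 to 0.10). That step passed only when the shared untreated libraries were assumed to hold an equal share of the error and this share was removed. HMOX1 then went below the untreated level, to 503 on day 2 of PMD-Sen (log2 fold change -1.17, adjusted p = 0.0222), to 452 on day 4 of Ca2+-Sen (-1.32, adjusted p = 0.00529) and to 546 on day 4 of DDR-Sen (-1.05, adjusted p = 0.0274). HMOX1 was lower on 3 of 8 days of PMD-Sen, 2 of Ca2+-Sen and 5 of DDR-Sen. It was still low at day 16 of DDR-Sen, at 617 (log2 fold change -0.87, adjusted p = 0.000219). At day 16 of PMD-Sen (1003), day 16 of Ca2+-Sen (864) and in RS (987) it did not pass the test. Its SE, 0.19 to 0.53 over the 25 comparisons, was wider than that of FTH1, 0.07 to 0.17.

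Glutamate-cysteine ligase makes the first product of glutathione synthesis, with GCLC (chr6:53497341-53616970, minus strand) as its catalytic subunit and GCLM (chr1:93885205-93909456, minus strand) as its modifier. GCLC went from 1074 in untreated cells to 2166 at day 0 of PMD-Sen (2.02-fold, adjusted p = 1.75e-15) and to 1819 at day 0 of Ca2+-Sen (1.69-fold), but was 1069 at day 0 of DDR-Sen. It remained higher on days 1 and 2 of PMD-Sen, at 1655 and 1375. On no day was GCLC called lower.

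GCLM went from 2347 in untreated cells to 4631 at day 0 of PMD-Sen (1.97-fold, adjusted p = 1.61e-14). The rise to 2835 after KCl was smaller (1.21-fold, adjusted p = 0.0403), and the level after doxorubicin, 1809, was lower (log2 fold change -0.38, adjusted p = 0.035). The last 2 calls were lost without the filter on low values, with adjusted p-values of 0.0827 and 0.0784. One day later GCLM was down to 1339 in PMD-Sen (log2 fold change -0.81), 1608 in Ca2+-Sen (-0.55) and 1570 in DDR-Sen (-0.58), all called lower. It was called lower on days 1 to 8 of PMD-Sen, on days 1 to 4 of Ca2+-Sen and on days 0 to 8 of DDR-Sen. The lowest level, 1256 at day 3 of PMD-Sen, was 0.535 of the untreated level. By day 16 GCLM was at 1849, 2347 and 2305 in the PMD-Sen, Ca2+-Sen and DDR-Sen cells, and none of these passed the test.

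TXNRD1 (chr12:104215779-104350305, plus strand), the cytosolic thioredoxin reductase, rose from 33317 to 70158 at day 0 of PMD-Sen (2.11-fold, adjusted p = 8.14e-16). After KCl it was 40257 (1.21-fold, adjusted p = 0.0441), a call that was lost with the authors' own adjusted p-value (0.0536) and without the filter (0.0904). After doxorubicin it was 29413 and did not pass. It was back at 32832 on day 1 of PMD-Sen and was called lower on days 3 and 8 of PMD-Sen and on day 3 of DDR-Sen, at 20614, 24647 and 23121.

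SRXN1 (chr20:646615-653370, minus strand), the sulfiredoxin that repairs over-oxidised peroxiredoxins, rose from 390 to 1097 at day 0 of PMD-Sen (2.82-fold, adjusted p = 2.92e-16) and to 765 at day 0 of Ca2+-Sen (1.97-fold, adjusted p = 1.34e-09). At day 1 of PMD-Sen it was still higher, at 590. It was lower on days 4 and 8 of Ca2+-Sen, at 249 and 230. No day of DDR-Sen passed the test, with levels from 304 to 485.

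NQO1 (chr16:69706996-69726951, minus strand) is a quinone reductase. Its level was 9004 in untreated cells, 7811 at day 0 of PMD-Sen, 15614 at day 0 of Ca2+-Sen and 16011 at day 0 of DDR-Sen. The KCl and doxorubicin values were 1.74-fold and 1.78-fold above untreated cells (adjusted p = 2.22e-10 and 3.6e-08), while the SDS value did not pass (log2 fold change -0.20, SE 0.13). After SDS the level on day 1, 13686, was above that of day 0 (log2 difference 0.81, SE 0.27, adjusted p = 0.0118), although against untreated cells it just missed the threshold (adjusted p = 0.0511). In DDR-Sen NQO1 was still higher on day 1, at 14278, and lower on day 4, at 5564. At day 16 it was lower in PMD-Sen (6287), DDR-Sen (5899) and RS (5820), and at 10208 in Ca2+-Sen it did not pass.

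OSGIN1 (chr16:83948282-83966332, plus strand) rose after all 3 inducers. From 506 in untreated cells it reached 1585 after SDS (3.14-fold, adjusted p = 2.25e-23), 1541 after KCl (3.05-fold, adjusted p = 1.26e-26) and 713 after doxorubicin (1.41-fold, adjusted p = 0.0122). On day 1 it was back at 490 in PMD-Sen and 514 in Ca2+-Sen. It was lowest on day 4 of each series, at 304, 317 and 314, and all 3 values were called lower. In DDR-Sen it then came back up to 629 on day 6 (log2 difference from day 4 of 1.01, SE 0.25, adjusted p = 0.0119).

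ME1 (chr6:83210389-83431071, minus strand), the cytosolic malic enzyme that yields NADPH, had its largest rise after KCl. Its level went from 2236 in untreated cells to 8040 at day 0 of Ca2+-Sen (3.60-fold, adjusted p = 2.4e-100), to 3465 at day 0 of PMD-Sen (1.55-fold) and to 2147 at day 0 of DDR-Sen, which did not pass. It remained higher on day 1 of Ca2+-Sen, at 2983, and on days 1 and 2 of PMD-Sen, at 3262 and 2695. ME1 was called lower on no day of any series.

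FTH1 (chr11:61959718-61967660, minus strand), the ferritin heavy chain that oxidises and stores iron, rose at day 0 in PMD-Sen only and late in every series. It went from 18009 in untreated cells to 42081 at day 0 of PMD-Sen (2.34-fold, adjusted p = 6.92e-37), then down to 32757, 23268 and 18755 on days 1, 2 and 3. After KCl and doxorubicin its day 0 levels were 20173 and 21060, and neither passed. The KCl value was called higher when the tables were scaled by library totals (log2 fold change 0.23, adjusted p = 0.00916) or centred on their median (0.20, adjusted p = 0.0228). FTH1 was called higher on days 1 and 2 of DDR-Sen, at 24640 and 23343, and on days 3, 6 and 8 of Ca2+-Sen, at 22339, 22851 and 29588. At day 16 it was higher in every series, at 29811 in PMD-Sen, 27939 in Ca2+-Sen and 28012 in DDR-Sen, and it was 28820 in RS. FTH1 has near-identical processed copies: 27 were listed, 3 of them were tested, and their summed level was 0.399% to 0.574% of that of FTH1 and its copies together, so the division of reads among them is uncertain to that extent or more.

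The inducers were then compared with each other on the same day, by the difference of their log2 fold changes. As the error of the shared untreated libraries enters each difference from both sides, this test is conservative. The removal of this error, given below as an alternative, assumed that treated and untreated libraries contributed equally to each variance, which was not checked. At day 0 all 9 members differed between SDS and doxorubicin, 8 higher after SDS and NQO1 lower (background 28.6% of genes called). Between SDS and KCl 6 differed (background 38.6%): HMOX1, GCLM, TXNRD1 and FTH1 were higher after SDS, NQO1 and ME1 higher after KCl. Between KCl and doxorubicin 6 differed, all of them higher after KCl (background 37.1% in either direction). The largest difference of that pair was that of ME1, 1.91 on the log2 scale (SE 0.15, adjusted p = 1.56e-35).

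**Figure D2:**
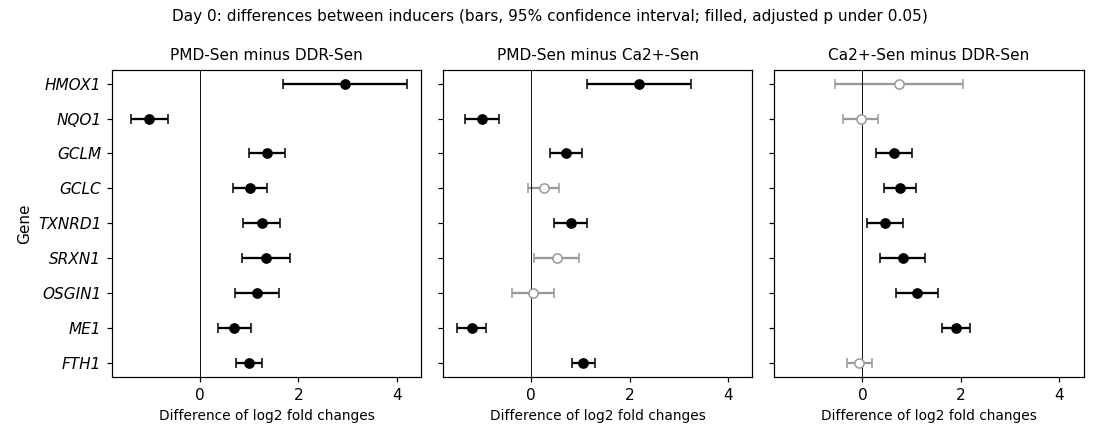
Difference of log2 fold changes between inducers at day 0 (horizontal axis) for each member (vertical axis), with 95% confidence intervals as bars and filled points where the adjusted p-value was under 0.05. In the SDS minus doxorubicin panel all 9 points are filled and only NQO1 lies left of 0; OSGIN1 lies near 0 between SDS and KCl.

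Some pairs of inducers could not be separated. OSGIN1 differed by 0.04 between SDS and KCl (95% interval -0.38 to 0.47), GCLC by 0.25 (-0.07 to 0.57) and SRXN1 by 0.52 (0.06 to 0.98, adjusted p = 0.063). Between KCl and doxorubicin NQO1 differed by -0.04 (-0.39 to 0.32) and FTH1 by -0.06 (-0.31 to 0.19). The SRXN1 difference between SDS and KCl was called when the error of the untreated libraries was removed. From day 1 on, 8 of 189 member differences between inducers were called (background 2.98%), at most 2 for any pair on 1 day. With the untreated error removed, 24 were called (background 7.59%), at most 4 for a pair, so this count depends on how that shared error is treated. FTH1 and ME1 accounted for 6 of those 8 differences and NQO1 for 2: at day 16 NQO1 was higher in Ca2+-Sen than in PMD-Sen (log2 difference of -0.70 for PMD-Sen minus Ca2+-Sen) and than in DDR-Sen (0.79).

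Between day 0 and day 1 most of the members that had gone up after SDS or KCl went down again. In PMD-Sen 7 of 9 differed, 6 lower on day 1 than on day 0 and NQO1 higher (background 29.0% of genes called in either direction). The steps of GCLC and ME1 did not pass. In Ca2+-Sen 6 of 9 differed, all of them lower (background 36.5% in either direction), and the largest step was that of OSGIN1, -1.59. Those of HMOX1 and NQO1 did not pass. The share of all genes called lower alone was not calculated. In DDR-Sen none differed (background 3.54%), NQO1 and OSGIN1 included, and the largest step was that of HMOX1, -0.43 (95% interval -1.76 to 0.90).

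On day 1 itself 4 members were still above untreated cells in PMD-Sen (GCLC, SRXN1, ME1 and FTH1; background 9.63%) and 1 was lower (GCLM; background 10.0%). In Ca2+-Sen 1 was higher (ME1; background 5.34%) and 1 lower (GCLM; 7.13%). In DDR-Sen 2 were higher (NQO1 and FTH1, background 8.50%) and 1 lower (GCLM, 11.0%). The lower counts of PMD-Sen and DDR-Sen were near the background.

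On days 2 to 4 lower calls outnumbered higher calls in each series. Of 27 values (9 genes on 3 days) in PMD-Sen, 3 were higher (background 7.18%) and 8 lower (7.14%). In Ca2+-Sen 1 was higher (3.84%) and 7 lower (5.10%), and in DDR-Sen 1 was higher (5.94%) and 9 lower (8.28%). The higher counts of Ca2+-Sen and DDR-Sen were near or under the background. The median log2 fold change of the members was -0.46 in PMD-Sen, -0.33 in Ca2+-Sen and -0.33 in DDR-Sen, whereas the median of all genes tested lay between 0.00 and 0.01. GCLM was called lower at all 9 of these time points, HMOX1 at 6 and OSGIN1 at 5.

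On days 6 to 16, again out of 27 values, PMD-Sen had 2 higher (background 7.05%) and 7 lower (8.19%), Ca2+-Sen 4 higher (8.67%) and 2 lower (9.80%), and DDR-Sen 3 higher (11.4%) and 7 lower (14.1%). The higher counts of PMD-Sen and DDR-Sen and the lower count of Ca2+-Sen were near or under the background. The higher values were those of FTH1 and GCLC. At day 16 GCLC was at 1566 in PMD-Sen and 1660 in DDR-Sen, 1.46-fold and 1.55-fold above untreated cells, and at 1283 in Ca2+-Sen, which did not pass. The lower values were those of GCLM, HMOX1, NQO1, OSGIN1, TXNRD1 and SRXN1.

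RS cells had FTH1 (1.60-fold) and GCLC (1.51-fold) higher, where 11.6% of all genes were called higher. NQO1 was lower (0.646 of the untreated level), where 11.5% were called lower, and this single call was near that share. In the direct comparison with RS no member differed from day 16 of PMD-Sen (background 0.685%) or of DDR-Sen (background 0.148%). The widest gaps there were GCLM in PMD-Sen, -0.48 on the log2 scale (95% interval -1.07 to 0.11), and HMOX1 in DDR-Sen, -0.68 (-1.59 to 0.23). For these genes, differences of that size could not be told from no difference by this test. From day 16 of Ca2+-Sen 1 member differed (background 4.25%): NQO1 was higher than in RS by 0.81 (SE 0.24, adjusted p = 0.0217).

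Among the regulators of these genes, NFE2L2 mRNA was called higher mainly on the last days. At day 0 of PMD-Sen it was at 3704 compared with 3501 in untreated cells and did not pass, whereas after KCl it rose to 5028 (log2 fold change 0.52). It was lower on days 1 to 3 of PMD-Sen, down to 2245, on days 1 and 3 of Ca2+-Sen, and on day 2 of DDR-Sen (2874). Late in each series it was higher, at 5893, 5217 and 6697 on day 16 of PMD-Sen, Ca2+-Sen and DDR-Sen, at 7492 and 4688 on day 8 of Ca2+-Sen and DDR-Sen, and at 5884 in RS. NRF2 activity is set mainly at the level of the protein, which was not measured here.

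The small MAF genes moved at day 0 after SDS and KCl. MAFG rose from 1535 to 4913 after SDS and to 3457 after KCl (log2 fold changes 1.68 and 1.17). MAFF rose from 1219 to 2876 and 1982 (1.24 and 0.70), and MAFK from 1585 to 2367 and 5279 (0.58 and 1.74), so that MAFK, as ME1, had the higher value after KCl. None of the 3 was called at day 0 of DDR-Sen (log2 fold changes from 0.11 to 0.27). Later calls of these genes were all lower: MAFF on days 1, 2 and 8 of PMD-Sen and days 1 and 8 of Ca2+-Sen, MAFG on day 3 of PMD-Sen and day 4 of Ca2+-Sen, and MAFK on days 2 and 8 of Ca2+-Sen.

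BACH1, the repressor, was at 2714 compared with 1884 at day 0 of PMD-Sen (log2 fold change 0.53) and lower on day 1, at 1525. It was also higher on day 8 of Ca2+-Sen, at 2338 (0.31). KEAP1 was higher at day 0 of Ca2+-Sen (0.39) and on day 1 of PMD-Sen (0.30), and CUL3 at day 0 of Ca2+-Sen only (0.22). NFE2L1, a relative of NFE2L2 that controls proteasome genes, was higher at day 0 of PMD-Sen (0.71) and DDR-Sen (0.25) and lower after KCl (-0.21). It was higher again on days 4 to 16 of PMD-Sen (0.24 to 0.49), days 6 and 8 of Ca2+-Sen (0.38 and 0.33), days 3 to 16 of DDR-Sen (0.28 to 0.58) and in RS (0.65). BACH2 was below the minimum level and was not tested. SQSTM1, whose protein p62 binds KEAP1, had values from -4.10 to 0.49 with neighbouring days far apart (176 on day 8 and 3479 on day 16 of Ca2+-Sen) and no direction is given for it.

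**Figure D3:**
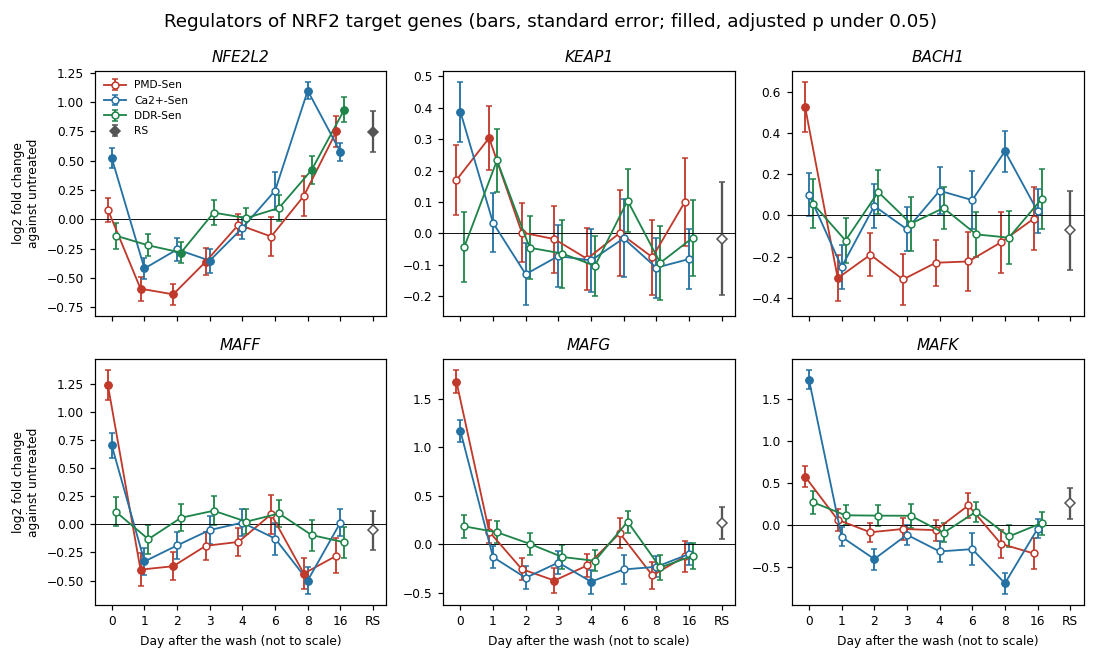
Log2 fold change against untreated cells (vertical axis) by day after the wash (horizontal axis, days evenly spaced) for NFE2L2, KEAP1, BACH1 and the small MAF genes in PMD-Sen, Ca2+-Sen and DDR-Sen cells and in RS, with standard errors as bars and filled symbols for an adjusted p-value under 0.05. The small MAF genes are high at day 0 after SDS and KCl, and NFE2L2 is high at day 16 and in RS.

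The other genes of the pathway, a list of 34 of which 31 were tested, moved in both directions. At day 0 of PMD-Sen 13 were higher and 7 lower (median log2 fold change 0.44), compared with 19.8% and 20.2% of all genes tested. At day 0 of Ca2+-Sen 18 were higher and 7 lower (median 0.46, background 23.6% and 26.5%), and at day 0 of DDR-Sen 10 higher and 4 lower (median 0.14, background 12.9% and 14.9%). The counts of lower genes were thus near the background in all 3. After SDS the largest rises were those of SLC7A11, the cystine importer that feeds glutathione synthesis (6262 to 33104, log2 fold change 2.40, SE 0.11), AKR1C1, an aldo-keto reductase (2.27), and IDH1, a cytosolic source of NADPH (1.28). The largest falls were those of ABCC1, a glutathione conjugate exporter (-1.10), BLVRA, biliverdin reductase A (-0.72), and TKT, transketolase (-0.48).

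After KCl the aldo-keto reductases led, with AKR1C2 at 2218 compared with 129 (log2 fold change 4.10) and AKR1C1 at 8388 compared with 510 (4.04), followed by TRIM16L (1.98). AKR1C genes are near copies of each other, as are TRIM16 and TRIM16L, and reads may have been divided among them. The glutathione synthetase GSS (-1.16), the NADPH-yielding PGD (-1.02) and the heme transporter SLC48A1 (-0.65) fell most. After doxorubicin ABHD4 (1.19), TKT (0.99) and the exporter ABCC3 (0.98) rose most, and TRIM16 (-0.50), TALDO1 (-0.38) and UGDH (-0.35) fell most. TKT thus had opposite calls at day 0 of PMD-Sen and of DDR-Sen.

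On days 2 to 4 lower calls also outnumbered higher calls in the list, as they did over all genes tested in Ca2+-Sen and DDR-Sen. In PMD-Sen 27 of 93 values were lower (background 7.14%) and 10 higher (7.18%), in Ca2+-Sen 23 lower (5.10%) and 11 higher (3.84%), and in DDR-Sen 19 lower (8.28%) and 8 higher (5.94%). At day 16, 7 of 31 were higher (background 9.63%) and 2 lower (11.5%) in PMD-Sen, 8 higher (5.79%) and 2 lower (6.08%) in Ca2+-Sen, and 8 higher (13.2%) and 6 lower (16.7%) in DDR-Sen. In RS 9 were higher (11.6%) and 4 lower (11.5%). The lower counts of these 4 groups were near or under the background. AKR1C2 and AKR1C1 led the rises in all of these: AKR1C2 was at 999 in PMD-Sen, 472 in Ca2+-Sen, 941 in DDR-Sen and 825 in RS, compared with 129 in untreated cells. FTL, the ferritin light chain, was among the leading 3 in PMD-Sen (0.91) and Ca2+-Sen (0.80), and EPHX1, an epoxide hydrolase, in DDR-Sen (1.09) and RS (1.13). UGDH was lower in each of these 4 groups, from -0.35 to -0.77.

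**Figure D4:**
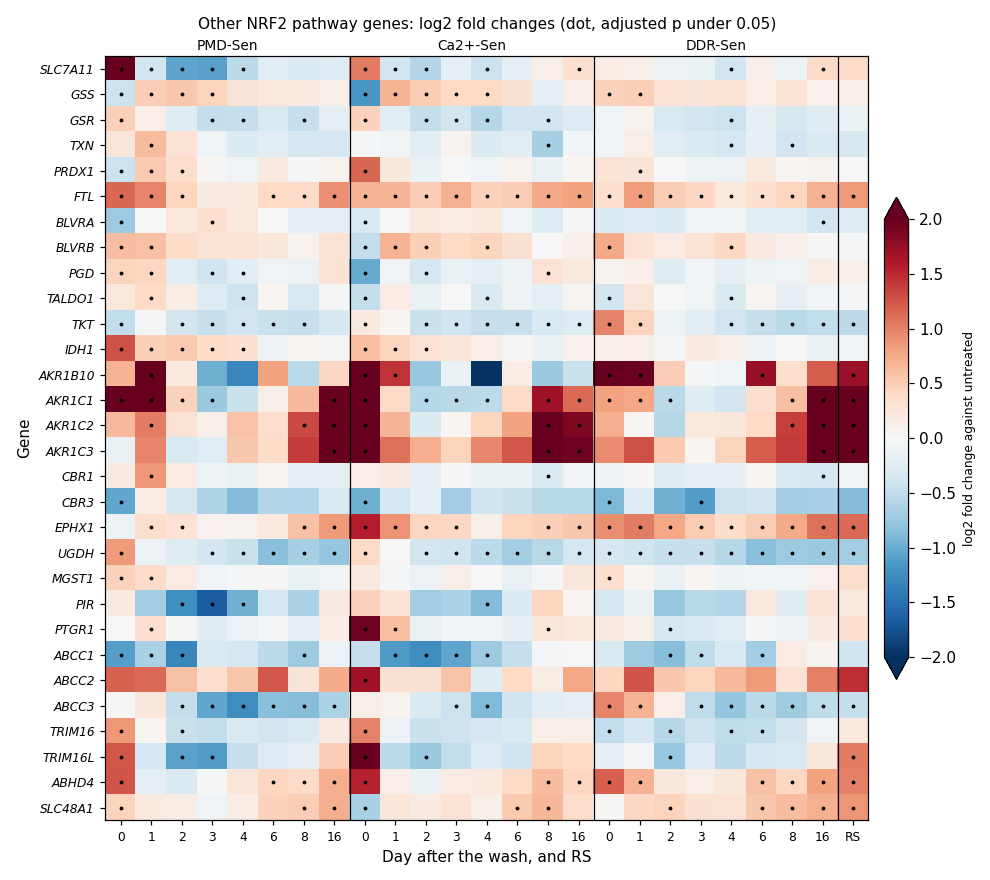
Log2 fold changes against untreated cells (colour, from -2 to 2 with values beyond at the end colours) of 30 of the other pathway genes tested (rows) over the 25 comparisons (columns, day after the wash within each series, then RS), with a dot where the adjusted p-value was under 0.05. AKR1C1 and AKR1C2 are high at day 0 of Ca2+-Sen, at day 16 and in RS, and FTL is high throughout most columns.

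Antioxidant enzymes outside the list, 19 of which 18 were tested, were called in both directions at day 0. After SDS 6 were higher (background 19.8%) and 6 lower (20.2%), with PRDX5 at 1.04 and mitochondrial SOD2, from 9852 to 3621, at -1.44. After KCl 4 were higher (23.6%) and 7 lower (26.5%), led by TXNRD2 (0.89) and GLRX (-0.95), and after doxorubicin 3 were higher (12.9%) and 3 lower (14.9%), led by GPX1, from 7162 to 20783 (1.54), and SOD2 (-0.52). The secreted enzyme GPX3 rose at day 16 of all 3 series and in RS. It went from 145 to 1017 at day 16 of PMD-Sen, 350 of Ca2+-Sen, 1002 of DDR-Sen and 1344 in RS. SOD3, also secreted, rose from 367 to 960, 950 and 991 in PMD-Sen, DDR-Sen and RS, and at 386 in Ca2+-Sen it did not pass.

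Across the 25 treated and RS groups the log2 levels (level plus 1) of the 36 pairs of members had Pearson correlations from 0.01 to 0.87 with a median of 0.64, and 36 of 36 were above 0. Without the day 0 groups the median was 0.50 and the range -0.34 to 0.79. These values are given as a description, since most of the groups are days of the same series and not separate experiments. The groups were also put on 1 scale through the same untreated libraries. Among the 10568 genes whose mean was 100 or more, the genes whose course was most like that of HMOX1 were TGIF1 (r = 0.94 over 25 groups), MSC (0.93), MSC-AS1 (0.93), SLC3A2 (0.93) and SLC1A5 (0.92). These genes had log2 fold changes of 1.33 to 2.78 at day 0 of PMD-Sen, where HMOX1 was highest. Their correlations without the day 0 groups were not calculated. MSC and MSC-AS1 overlap in the genome, and their reads may not be separable. Those most like NQO1 were PRDM1 (0.87), DOT1L (0.87), SALL1 (0.85), CTCF (0.85) and KYNU (0.84).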

How the data were processed

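Libraries were trimmed, aligned to GRCh38 and counted by the authors, with Trim Galore, HISAT2, HTSeq, featureCounts and DESeq2 named in the submitters' processing notes. The 52 deposited files reduce to 25 different tables, each comparing 1 group with untreated cells. For each gene the authors deposited a mean of normalised counts (a signal), a log2 fold change with an SE, the ratio of both (a score), and p-values before and after adjustment. As these tables hold nothing per library, the edgeR test planned for counts was not run and the deposited log2 fold changes, standard errors and Wald p-values were used. Other columns of per-sample values numbered 0. Group means were recovered from the mean and the fold change and rescaled so that 8645 genes above 200 in every table had equal untreated means. Genes with a mean of at least 10 over 26 groups were tested (14896 to 14898 with a p-value in a table), Benjamini-Hochberg adjustment was run separately for every table, and a difference between 2 comparisons was divided by the square root of the sum of both variances and given a normal p-value, adjusted likewise. A row named by coordinates, at most 0.00223% of the summed mean, was left out in 23 tables.

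The tables were read with Python 3.11.15 and pandas 2.3.3, and the code was tested on simulated data. The members, the lists of pathway and antioxidant genes and the tests were chosen with earlier results of these data known. Named were all members and regulators, from each other list up to 3 called genes with the largest rise and 3 with the largest fall, among those with a mean of at least 100, at day 0, day 16 and in RS, and the 5 genes most like HMOX1 and NQO1 by Pearson correlation. The alternatives were a minimum mean of 100, no minimum, a log2 change of at least 1, scaling by library totals, centring on the median, the authors' adjusted p-value and, for differences, removal of the untreated error. That removal took the treated and untreated libraries to hold equal shares of each variance, although the untreated libraries were the smallest. Gene positions are those of GENCODE 29. One gene of the pathway list is counted in the list's totals but is not reported here by name.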

Additional observations from a re-analysis of the deposited data

Results flagged for a closer look

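Several members were called higher than untreated cells on one day and lower on another day of the same series. The difference between the highest and lowest of these days is given as a size only. The days were picked for their opposite calls, so that a test of this difference was nearly certain to pass. The largest was HMOX1 in PMD-Sen, 4.35 on the log2 scale between days 0 and 2 (SE 0.54). HMOX1 in Ca2+-Sen differed by 2.30 between days 0 and 4, and its day 0 call was lost without the filter on low values (adjusted p = 0.061). OSGIN1 did so in all 3 series between days 0 and 4, by 2.39 in PMD-Sen, 2.28 in Ca2+-Sen and 1.19 in DDR-Sen. GCLM differed by 1.88 between days 0 and 3 of PMD-Sen and by 1.09 between days 0 and 4 of Ca2+-Sen, where its day 0 call was lost without the filter on low values. TXNRD1 differed by 1.77 between days 0 and 3 of PMD-Sen, and SRXN1 by 1.73 between days 0 and 8 of Ca2+-Sen. NQO1 differed by 1.25 between days 0 and 8 of Ca2+-Sen and by 1.53 between days 0 and 4 of DDR-Sen. The share of all genes tested that turned in this way was not calculated, and what set the later lows was not tested.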

How the results depend on the processing

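Over the 25 comparisons 41 of 225 member values were called higher and 45 lower, and 164 and 134 values of the pathway list. Of all genes tested, 1.77% to 23.6% were called higher and 2.56% to 26.5% lower in a single comparison. With a log2 fold change of at least 1 the called values were 8 and 5 for the members. For the list they were 48 and 17, since most changes were below that size. The other alternatives against untreated cells gave 36 to 42 and 35 to 47 for the members. Between inducers 29 of 216 member differences were called (background 34.8% at day 0 and 2.98% from day 1 on). Between days 33 of 216 were called, and the pooled background of these was not calculated. These counts became 46 and 60 with the untreated error removed, and 13 and 17 with a difference of at least 1. With that minimum the single difference from RS gave 0. Of 63 member values at day 0, at day 16 and in RS, 4 changed sign with scaling by library totals, none of them called: GCLM at day 16 of Ca2+-Sen (-0.00352) and of DDR-Sen (0.0325), TXNRD1 in RS (-0.0054) and OSGIN1 at day 16 of DDR-Sen (0.052). Centring on the median changed the sign of 3, also not called: GCLC at day 0 of DDR-Sen (0.00338), OSGIN1 at day 16 of PMD-Sen (-0.00355) and of DDR-Sen (0.00701). No scaling moved the median of all genes by more than 0.1 on the log2 scale. No paired analysis was possible because the files hold no value of a single library, and for the same reason no replicate could be left out. Each group had 2 libraries, and the shared reference held the smallest. Changes of HMOX1 were measured with wide error, SE 0.19 to 0.53. GCLC, at a similar untreated level (1074 compared with 1128), had SE 0.11 to 0.17. What set the wide error of HMOX1 was not tested.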
